A study of Mus musculus with 12 samples.

Results

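Messenger RNA levels of the proteasome genes were examined in the livers of mice with and without lipin 1, a phosphatidate phosphatase and transcriptional coactivator, after a fast and after refeeding. The genes were taken by symbol, as all rows of the deposited table named Psma, Psmb, Psmc, Psmd, Psme, Psmf or Psmg followed by a number, if their average over the 12 libraries reached 0.5 RPKM (reads normalised for exon length and library depth). Of 22456 rows, 50 had such a name and 48 reached that average. Just inside the limit was Psmc3ip (0.509 RPKM), a meiotic recombination protein that shares the name pattern and is not a proteasome subunit, and just outside were Psme2b (0.382 RPKM), a copy of Psme2, and Psmb11 (0 RPKM in every library), the beta subunit of the thymus. Mean RPKM was thus used to choose the genes, so the levels below are a description, and all 48 also passed the limit on low values of the test.

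The 4 groups held 3 mice each, all male BALB/cByJ mice aged 2 to 8 months. Lpin1-/- mice carried the fatty liver dystrophy (fld) mutation in all tissues, and the Lpin1+/+ mice were their wild type littermates. Fasted mice, housed singly, went without food for 16 hours, and refed mice were given chow for 5 hours after the same fast. Refed livers were therefore collected later in the day than fasted ones, so feeding and time of day cannot be told apart. RNA came from whole liver, and in such samples fewer cells of a type and less RNA per cell cannot be told apart.

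The proteasome is the barrel-shaped protease that degrades ubiquitin-tagged proteins in the cytosol and nucleus. Its 20S core is a stack of alpha and beta rings, in which the beta subunits Psmb5, Psmb6 and Psmb7 cut peptide bonds, and its 19S cap binds, unfolds and threads substrates through a ring of ATPases (Psmc) held by a base and a lid (Psmd). Interferon signalling replaces the cutting subunits with Psmb8, Psmb9 and Psmb10 to form the immunoproteasome, alternative caps (Psme) open the core without ubiquitin, and dedicated chaperones (Psmg, Psmd5, Psmd9 and Psmd10) assemble the parts. In hepatocytes its substrates include HMG-CoA reductase, the rate-limiting enzyme of cholesterol synthesis.

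Lpin1 RNA was at most 0.0597 RPKM in the 6 Lpin1-/- libraries and between 0.726 and 22.0 RPKM in the 6 Lpin1+/+ libraries, so the libraries matched their genotype labels. Depth, estimated from the steps between low RPKM values, was 94.0 to 126 M mapped reads per library. Libraries stood apart in several respects. In fasted Lpin1+/+ liver, Lpin1 was at 22.0 RPKM in replicate 1, against 0.726 and 1.76 RPKM in replicates 2 and 3. The hepatocyte markers Tat (1754 against 303 and 300 RPKM) and Cps1 (1340 against 274 and 300 RPKM) were also high in replicate 1. Of the other hepatocyte markers, Alb was highest and Ttr, Apoa1 and Cyp2e1 were lowest in that replicate of the group. Log2 RPKM leaned toward longer transcripts in fasted Lpin1+/+ replicate 1 and refed Lpin1-/- replicate 1 (across 11163 genes, the library's deviation from the gene mean correlated with log2 exon length at r = 0.43 and 0.39) and toward shorter ones in fasted Lpin1+/+ replicate 2 and fasted Lpin1-/- replicate 1 (both r = -0.33). Refed Lpin1+/+ replicate 2 had the lowest summed RPKM of 6 hepatocyte markers, 33351 against 59461 to 79406 in the fasted and Lpin1-/- libraries. Replicate 1 of its group also lay below that range, while replicate 3 was at 66438. Refed Lpin1+/+ replicate 2 also had more RNA of immune markers than the other refed libraries, given below beside the immunoproteasome. All 6 hepatocyte markers, Alb among them, were expressed in every library.

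The most abundant proteasome RNAs were those of 20S core subunits, and the levels of the core subunits moved together from library to library. Mean levels over the 12 libraries ran from 76.1 RPKM for Psmb5 to 264 RPKM for Psmb4 among 14 of the 15 core subunits. The exception was Psma8, the alpha subunit of the testis, at 1.03 RPKM. After Psmb4, the highest levels were those of Psma7 (260 RPKM), Psmb1 (217 RPKM), Psma6 (211 RPKM) and Psmb6 (199 RPKM). The lid subunit Psmd8 (161 RPKM) came next, above the remaining core subunits. Correlations were taken over the 12 libraries on log2(RPKM + 1) after each gene's group mean was subtracted, so they describe deviations within groups. Pairs of these 14 core genes had a median r of 0.97 (0.92 to 1.00 over 91 pairs), while pairs of 19S genes had a median r of 0.54 (-0.73 to 0.96 over 136 pairs). These correlations share their libraries and with them the lean toward short or long transcripts.

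The 3 cutting subunits show this pattern. Psmb5, the chymotrypsin-like subunit, measured 41.1, 88.3 and 77.9 RPKM in fasted Lpin1+/+ liver, 72.4, 57.7 and 69.4 RPKM in fasted Lpin1-/- liver, 97.5, 89.0 and 78.9 RPKM in refed Lpin1+/+ liver, and 57.1, 95.8 and 88.3 RPKM in refed Lpin1-/- liver. The groups overlapped in all 4 comparisons, and replicate 1 was the lowest library of both the fasted Lpin1+/+ and the refed Lpin1-/- group. Psmb6, the caspase-like subunit, measured 109, 288 and 224 RPKM in fasted Lpin1+/+ liver, 224, 142 and 149 RPKM in fasted Lpin1-/- liver, 249, 250 and 230 RPKM in refed Lpin1+/+ liver, and 115, 204 and 202 RPKM in refed Lpin1-/- liver. Here every refed Lpin1-/- library lay below every refed Lpin1+/+ one, yet the difference of -0.53 ± 0.35 (log2 difference of RPKM plus 1, ± SE, n = 3) did not pass the test (limma, adjusted p = 0.401). Psmb7, the trypsin-like subunit, had group means of 165 ± 50.1 (fasted Lpin1+/+), 145 ± 19.2 (fasted Lpin1-/-), 175 ± 13.2 (refed Lpin1+/+) and 156 ± 27.6 RPKM (refed Lpin1-/-; SD, n = 3 each), and its levels overlapped in all 4 comparisons.

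**Figure D1:**
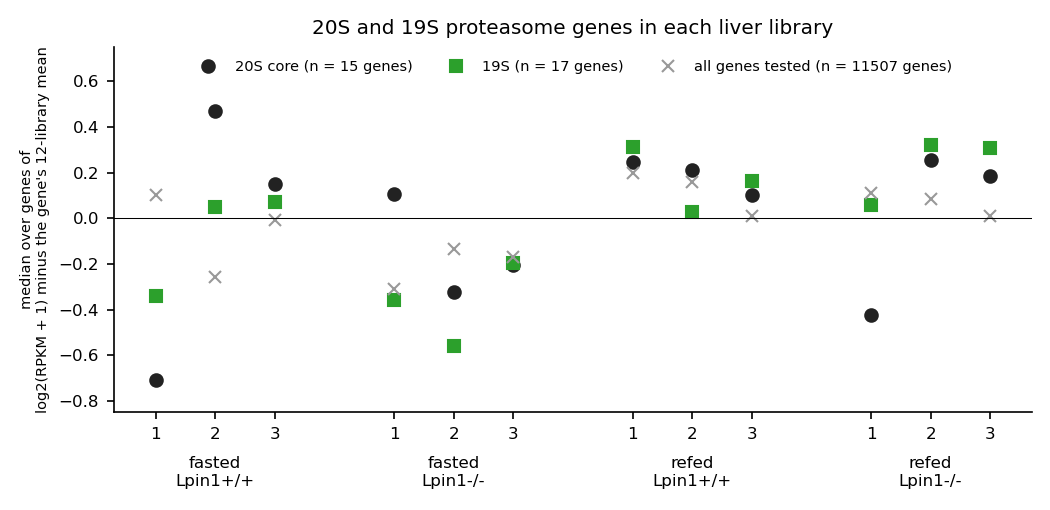
Median deviation of log2(RPKM + 1) from each gene's mean, for the 15 subunits of the 20S core, the 17 of the 19S cap and all 11507 genes tested, with 1 point per library and the libraries grouped by genotype and feeding. The 20S core is lowest in fasted Lpin1+/+ replicate 1 (-0.71) and highest in replicate 2 of the same group (0.47), while the 19S cap is below 0 in all 3 fasted Lpin1-/- libraries and above 0 in all 3 refed ones, as is the median of all genes (-0.31 to -0.13 fasted and 0.01 to 0.11 refed).

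The promoters of the proteasome genes were searched for the motif of a known control, and held it about as often as promoters in general. The transcription factor NRF1 (gene Nfe2l1), released from the endoplasmic reticulum when proteasome capacity is short, raises proteasome genes through the antioxidant response element, whose core is TGACNNNGC. In RefSeq promoters of GRCm38.p6, from 250 bases before the start to 50 after it, 40 of the 48 genes had a sequence and 6 of these (15%) held the motif on either strand (Psmb5, Psmb6, Psmc6, Psmd9, Psmd12 and Psme4), against 14% of 27025 promoters. The stretches before the first annotated exon are shown for a pair of cutting subunits and for Psmd12, which rose on refeeding in Lpin1-/- liver, with the matched letters in capitals (in Psmd12 on the opposite strand).
Psmb5, chr14:54618023-54618245, minus strand: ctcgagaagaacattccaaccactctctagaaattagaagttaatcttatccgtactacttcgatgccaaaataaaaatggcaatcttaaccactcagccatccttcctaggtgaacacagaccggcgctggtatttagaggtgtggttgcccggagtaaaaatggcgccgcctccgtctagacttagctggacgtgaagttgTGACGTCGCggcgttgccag
Psmb6, chr11:70525107-70525356, plus strand: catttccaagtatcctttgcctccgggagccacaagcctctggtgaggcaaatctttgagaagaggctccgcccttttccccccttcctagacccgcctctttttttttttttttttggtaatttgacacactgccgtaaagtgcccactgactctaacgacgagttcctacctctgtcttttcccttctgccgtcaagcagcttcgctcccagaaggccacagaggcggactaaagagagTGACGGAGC
Psmd12, chr11:107479278-107479483, plus strand: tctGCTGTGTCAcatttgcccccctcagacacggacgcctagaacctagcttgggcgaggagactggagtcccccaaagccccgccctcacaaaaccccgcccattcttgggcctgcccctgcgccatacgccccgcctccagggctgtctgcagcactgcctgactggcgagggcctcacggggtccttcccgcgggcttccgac
CCAAT, searched likewise, stood in 14 of the 40 promoters (35%) against 41.1% of all, the interferon-stimulated response element in 5 (12.5%) against 3.99%, and the STAT motif TTCNNNGAA, which reads the same on both strands, in 3 (7.5%) against 9.55%. The 5 with the interferon-stimulated response element were Psmb3, Psmd4, Psmd9, Psme1 and Psmg4, and not Psmb8, Psmb9 or Psme2. A match describes the letters only.

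In Lpin1+/+ liver, no proteasome gene passed the test for a difference between the refed and the fasted state. At an adjusted p under 0.05, 0 of 48 were called by limma, in a comparison where 1.72% of 11507 genes were called, and 3 had an unadjusted p under 0.05. Differences were above 0 for 42 of the 48, with a median of 0.25 on the log2 scale against 0.19 for all genes, and with the libraries rescaled to a common median ratio the median of the proteasome genes was -0.00267 and that of all genes -0.00122. The median was 0.19 for the 20S core and 0.24 for the 19S cap. Leaving out any library left the count at 0, but the median rested on fasted Lpin1+/+ replicate 1. Without it 24 of the 48 were above 0, with a median of 0.000916 over the 48 and -0.11 over the core (3 of 15 above 0), against 0.26 for all genes. Without replicate 2 of that group the median was 0.37.

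In Lpin1-/- liver, 7 of the 17 subunits of the 19S cap, the nuclear activator Psme3 and the chaperone Psmd5 rose on refeeding. In all, 9 of 48 genes (18.8%) were called higher and 0 lower, in a comparison where 17.8% of all genes were called higher, so the share of proteasome genes was near the background. Of the 48, 19 had every refed library above every fasted one, against 37.5% of all genes. The calls were not spread evenly over the particle. Of the 17 subunits of the 19S cap, all 17 had a positive difference and 7 were called (median 0.61 on the log2 scale against 0.25 for all genes). Of the 15 core subunits, 8 were positive and 0 called, with a median of 0.10. The low median of the core rested on refed Lpin1-/- replicate 1. There the core's median deviation from the gene means was -0.42, against 0.25 and 0.19 in replicates 2 and 3. For the cap these values were 0.06, 0.32 and 0.31. In fasted Lpin1-/- liver the core was at 0.10, -0.32 and -0.21, so the core is not shown to stay level on refeeding. With the libraries rescaled 16 of the 17 genes of the 19S cap had a positive difference, with a median of 0.36, while the median of the core was -0.15, next to 0.06 for all genes, and no 19S gene was called. With each library's slope on exon length removed, 20 genes were called, among them 11 of the 19S cap and 3 of the core. The median exon length was 2820 bases in the 19S genes and 2370 bases in the core genes.

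**Figure D2:**
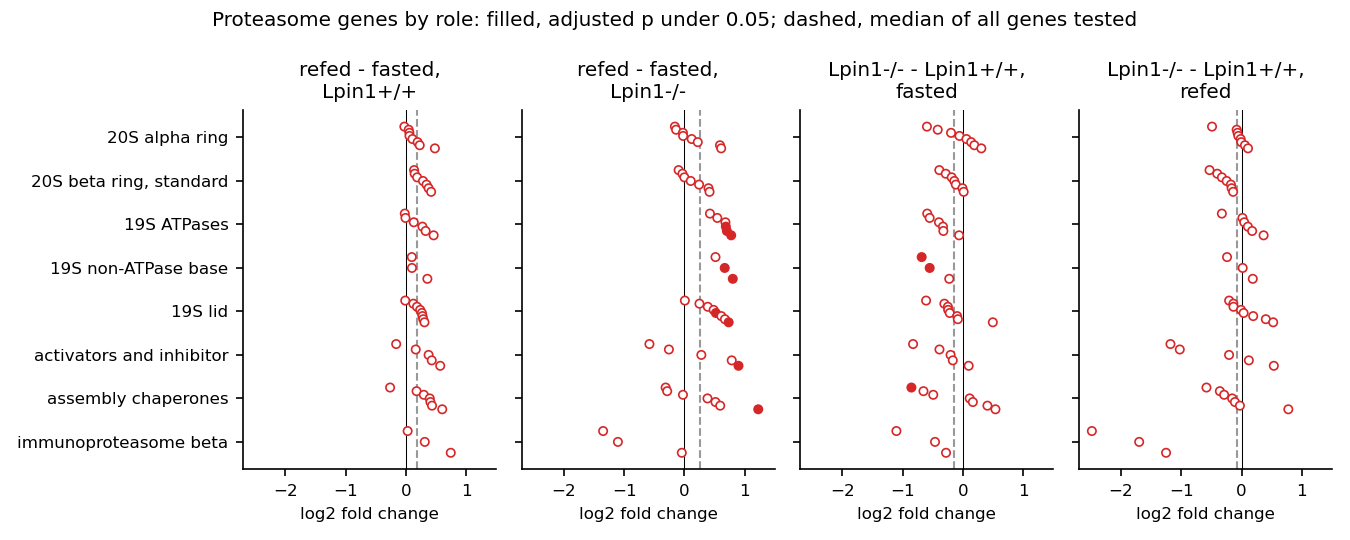
Log2 difference of RPKM plus 1 for each of the 48 genes, grouped by role in the proteasome, in 4 comparisons (refed minus fasted in each genotype, Lpin1-/- minus Lpin1+/+ in each feeding state). Filled points passed the test and the dashed line is the median of all 11507 genes. In the Lpin1-/- refeeding panel all 17 subunits of the 19S cap lie above 0 and 7 are filled, while none of the 15 core subunits is.

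Psmd5, a chaperone that binds the ATPase Psmc2 before the base joins the core, had the highest difference of the 48. Its level was 8.74, 10.7 and 11.2 RPKM in fasted Lpin1-/- liver and 20.8, 27.4 and 27.6 RPKM after refeeding. In Lpin1+/+ liver it was 18.3, 17.0 and 22.7 RPKM fasted and 29.3, 23.4 and 24.3 RPKM refed. The 3 fasted Lpin1-/- livers thus lay below all 9 others. The refed minus fasted difference was 1.22 ± 0.18 in Lpin1-/- liver (adjusted p = 0.00165), a 2.33-fold higher level, and 0.39 ± 0.18 in Lpin1+/+ liver (adjusted p = 0.364). The difference between those responses, 0.83 ± 0.26, did not pass the test (adjusted p = 0.135). The Lpin1-/- call held without each of the 12 libraries in turn (adjusted p from 0.00188 to 0.013), and also with the libraries rescaled.

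Among the ATPases, which unfold the substrate, 3 of 6 were called. Psmc2 rose from 60.8, 43.9 and 61.8 RPKM in fasted to 84.8, 99.2 and 100 RPKM in refed Lpin1-/- liver, with a difference of 0.77 ± 0.20 (adjusted p = 0.0191) and no overlap between the states. In Lpin1+/+ liver Psmc2 overlapped between the states, at 56.1, 78.1 and 74.8 RPKM fasted and 90.9, 70.5 and 90.9 RPKM refed. The other ATPases called were Psmc4 (0.70, adjusted p = 0.0331) and Psmc5 (0.69, adjusted p = 0.0353), while Psmc6 missed the threshold at 0.68 (adjusted p = 0.075). All 6 had an unadjusted p under 0.05.

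The scaffolds of the base followed. Psmd1, which forms the scaffold of the base together with Psmd2, measured 20.01, 22.9 and 30.1 RPKM in fasted and 47.3, 40.8 and 39.8 RPKM in refed Lpin1-/- liver, against 45.3, 34.9 and 38.1 RPKM in fasted and 47.8, 34.7 and 44.6 RPKM in refed Lpin1+/+ liver. The fasted Lpin1-/- group was the lowest of the 4 and overlapped none of them. Its refeeding difference was 0.80 ± 0.20 in Lpin1-/- (adjusted p = 0.0153) and 0.10 ± 0.20 in Lpin1+/+ liver (adjusted p = 0.866), and the test of the difference between them gave 0.70 ± 0.28 (adjusted p = 0.212). Psmd2, the scaffold that docks ubiquitin shuttle proteins, rose from 40.7, 44.3 and 53.6 to 78.8, 70.0 and 71.9 RPKM in Lpin1-/- liver, by 0.67 ± 0.18 (adjusted p = 0.0225). In Lpin1+/+ liver its levels were 72.9, 61.0 and 70.0 RPKM fasted and 99.9, 70.7 and 93.1 RPKM refed, which overlapped.

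In the lid, which carries the deubiquitinase Psmd14, 2 of 8 genes were called. Psmd12 measured 48.2, 46.2 and 62.5 RPKM in fasted and 78.6, 90.0 and 92.5 RPKM in refed Lpin1-/- liver, a difference of 0.73 ± 0.18 (adjusted p = 0.0143). Psmd7, the partner of Psmd14 in the lid, rose by 0.52 ± 0.17 (adjusted p = 0.0451), a call that was lost in 12 of its 20 alternative analyses. Psmd14 itself differed by 0.39 ± 0.33 (adjusted p = 0.417), and the lid subunit Psmd8 by 0.01 ± 0.19 (adjusted p = 0.986).

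These counts depended on single libraries. The 9 calls became 3 without fasted Lpin1-/- replicate 1, 2 without replicate 2 of that group, 2 without refed Lpin1-/- replicate 2 and 3 without refed Lpin1-/- replicate 3. Without fasted Lpin1+/+ replicate 1, which shares the estimate of the spread, 15 were called, and without refed Lpin1+/+ replicate 2 the count stayed at 9. With the libraries rescaled to a common median ratio, only Psmd5 was called.

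**Figure D3:**
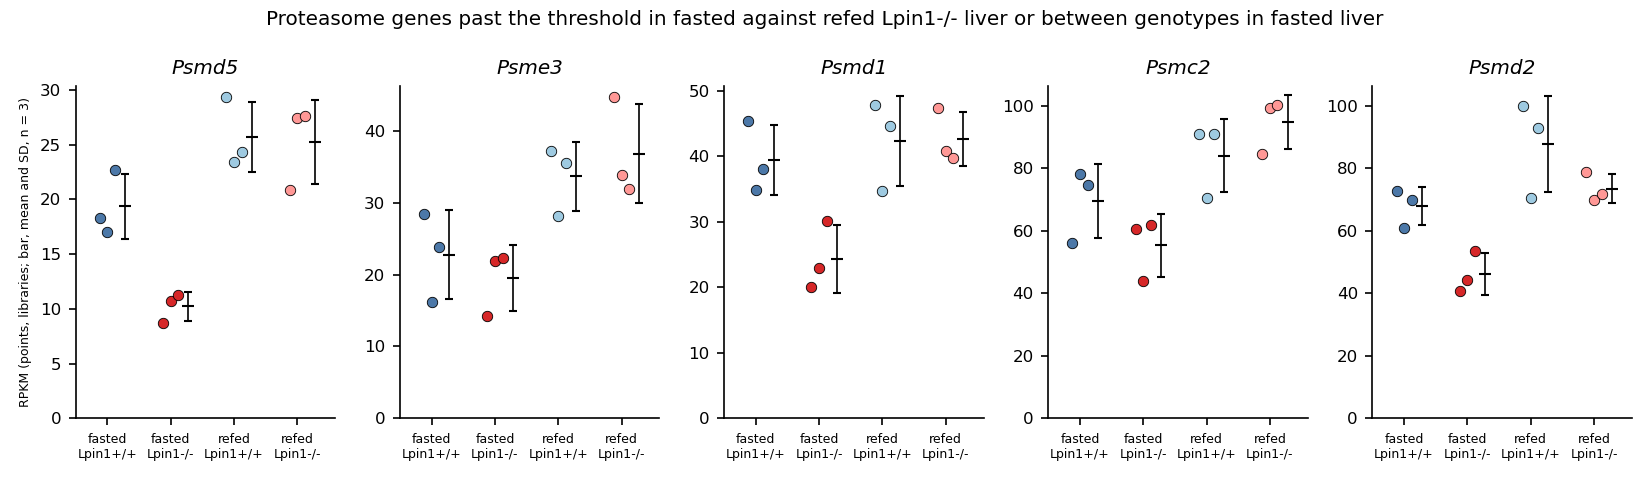
RPKM of Psmd5, Psme3, Psmd1, Psmc2 and Psmd2 in each of the 12 libraries (points), with the mean and SD of the 3 mice of a group. The fasted Lpin1-/- livers are lowest for Psmd5 (8.74 to 11.2 RPKM) and Psmd1 (20.01 to 30.1 RPKM), without overlap with the other groups.

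The genotypes differed in fasted liver in the same direction for a few of these genes. Of the 48, 3 were called lower in Lpin1-/- and 0 higher, in a comparison where 13.2% of all genes were called lower. They were Psmd5 (-0.86 ± 0.18, adjusted p = 0.00905), Psmd1 (-0.69 ± 0.20, adjusted p = 0.0312) and Psmd2 (-0.55 ± 0.18, adjusted p = 0.0499), whose call was lost in 12 of its 20 alternative analyses. Since the fasted Lpin1-/- libraries enter this comparison and the refeeding comparison alike, the results are not independent of each other. In 6 of the 48 every Lpin1-/- library lay below every Lpin1+/+ one, against 22.2% of all genes. The median difference was -0.22 over the 48, -0.31 over the 19S cap (16 of 17 negative) and -0.12 over the core (10 of 15 negative), next to -0.14 for all genes. With the libraries rescaled the medians of the cap and the core were -0.19 and 0.01, next to -0.04 for all genes, and the core thus changed sign. Without fasted Lpin1+/+ replicate 1 the medians were -0.48 over the 48, -0.47 over the cap and -0.42 over the core (14 of 15 negative), next to -0.07 for all genes, and without replicate 2 of that group the median over the 48 was -0.0591.

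Of the 11 genes with a difference above 0, the chaperone Psmd9 and the lid subunit Psmd8 had the highest. Psmd8 measured 103, 136 and 143 RPKM in fasted Lpin1+/+ and 202, 158 and 177 RPKM in fasted Lpin1-/- liver, without overlap, and its difference of 0.49 ± 0.19 did not pass the test (adjusted p = 0.0931). Psmd9, which binds the ATPases during assembly, measured 59.5, 61.3 and 67.6 RPKM in fasted Lpin1+/+, 74.5, 84.5 and 122 RPKM in fasted Lpin1-/-, 61.4, 38.6 and 59.6 RPKM in refed Lpin1+/+ and 87.0, 92.9 and 89.9 RPKM in refed Lpin1-/- liver. All 6 Lpin1-/- livers were above all 6 Lpin1+/+ livers, and the difference missed the threshold in the fasted (0.54 ± 0.22, adjusted p = 0.113) and in the refed state (0.78 ± 0.22, adjusted p = 0.0597). Psmd9 was singled out after its values were seen.

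The 3 calls became 6 without fasted Lpin1+/+ replicate 1, 1 without replicate 3 of that group, and 1 without fasted Lpin1-/- replicate 1 or replicate 2. In a fit of the fasted libraries alone 0 were called, with the libraries rescaled 1, and with the slope on exon length removed 8.

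In refed liver, 0 of 48 genes were called between the genotypes, in a comparison where 6.67% of all genes were called, and 5 had an unadjusted p under 0.05. The median difference was -0.10 against -0.07 for all genes. Psmd5 differed by -0.03 ± 0.18, with a 95% interval from -0.43 to 0.38, and Psmd1 by 0.02 ± 0.20, with an interval from -0.41 to 0.45. The test of whether refeeding responses differed between the genotypes called 0 of 48, next to 1.28% of all genes, with 3 at an unadjusted p under 0.05 (Psmd5, Psmd1 and Psmd12).

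The activators and the inhibitor went separate ways. Psme3, a cap of the nuclear proteasome that opens it for unstructured proteins, rose in Lpin1-/- liver from 14.2, 21.9 and 22.4 RPKM fasted to 44.7, 33.8 and 31.9 RPKM refed, without overlap. The difference was 0.90 ± 0.25, or 1.86-fold (adjusted p = 0.0264). In Lpin1+/+ liver Psme3 measured 28.4, 16.1 and 23.8 RPKM fasted and 37.2, 28.2 and 35.5 RPKM refed, a difference of 0.57 ± 0.25 that did not pass (adjusted p = 0.337). Psme4, a large single-chain cap, was lowest in fasted Lpin1-/- liver at 5.98, 8.41 and 8.10 RPKM, against 21, 9.67 and 13.3 RPKM in fasted Lpin1+/+, 18.8, 12.6 and 16.5 RPKM in refed Lpin1+/+ and 18.3, 11.9 and 11.3 RPKM in refed Lpin1-/- liver. No library of another group was as low, and neither the genotype difference in fasted liver (-0.83 ± 0.28, adjusted p = 0.0623) nor the Lpin1-/- refeeding difference (0.78 ± 0.28, adjusted p = 0.0697) passed the test. Psmf1, an inhibitor of the core, measured 31.6, 19.5 and 26.7 RPKM in fasted Lpin1+/+, 21.5, 28.2 and 33.2 RPKM in fasted Lpin1-/-, 20.4, 22.6 and 25.2 RPKM in refed Lpin1+/+ and 37.0, 29.6 and 33.7 RPKM in refed Lpin1-/- liver. It was higher in every refed Lpin1-/- than in every refed Lpin1+/+ library, by 0.54 ± 0.21 (adjusted p = 0.163).

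Of the 7 assembly chaperones, Psmd5 alone was called in any comparison. Psmg1 and Psmg2, which act as a pair on the alpha ring, were lower in every fasted Lpin1-/- than in every fasted Lpin1+/+ library, without passing the test. Psmg1 measured 15.9, 26.3 and 24.2 against 13.6, 11.7 and 15.1 RPKM (-0.66 ± 0.21, adjusted p = 0.0529) and Psmg2 14.6, 19 and 19.7 against 13.2, 11.5 and 12.0 RPKM (-0.49 ± 0.18, adjusted p = 0.0825). The chaperones Psmg3, Psmg4 and Psmd10 overlapped between the genotypes in both feeding states.

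The immunoproteasome genes were the most variable of the proteasome genes, and none was called in any comparison. Psmb9 ranged 50.7-fold over the 12 libraries and Psmb8 25.5-fold. Psmb8 measured 26.4, 116 and 65.9 RPKM in fasted Lpin1+/+, 119, 68.2 and 13.4 RPKM in fasted Lpin1-/-, 28.1, 342 and 40.1 RPKM in refed Lpin1+/+ and 13.9, 37.0 and 20.2 RPKM in refed Lpin1-/- liver. Psmb9 measured 23.1, 140 and 56.6 RPKM, 50.1, 40.9 and 8.24 RPKM, 31.2, 214 and 29.2 RPKM, and 4.22, 23.8 and 8.25 RPKM in the same order. Psmb10 measured 17.8, 53.7 and 37.2 RPKM, 37.3, 24.5 and 14.3 RPKM, 26.0, 166 and 39.8 RPKM, and 18.5, 28.7 and 22.6 RPKM. Refed Lpin1+/+ replicate 2 was the highest of the 12 libraries for all 3 genes, and refed Lpin1-/- liver had the lowest group mean for all 3.

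The cap genes Psme1 and Psme2, which interferon raises together with the immunoproteasome, followed the same libraries. Psme1 measured 60.7, 128 and 116 RPKM in fasted Lpin1+/+, 157, 91.8 and 43.8 RPKM in fasted Lpin1-/-, 82.4, 280 and 95.9 RPKM in refed Lpin1+/+ and 46.9, 66.5 and 59.5 RPKM in refed Lpin1-/- liver. Psme2 measured 30.5, 94.1 and 64.1 RPKM, 71.3, 40.9 and 27.6 RPKM, 49.7, 136 and 60.3 RPKM, and 26.4, 42.5 and 41.4 RPKM in that order. Over the 12 libraries, again with group means subtracted, the 10 pairs of these 5 genes correlated with a median r of 0.94 (0.91 to 0.98). The pairs of these genes with the 14 abundant core genes had a median r of 0.54. All pairs share the library with the highest values.

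In refed liver, Psmb9, Psme1 and Psme2 were below every Lpin1+/+ library in all 3 Lpin1-/- livers, and 6 of the 48 genes had no overlap in that direction, against 19.1% of all genes. The difference for Psmb9 was -2.48 ± 0.93 (95% interval -4.52 to -0.44, adjusted p = 0.138), for Psmb8 -1.70 ± 0.96 (adjusted p = 0.328) and for Psmb10 -1.25 ± 0.61 (adjusted p = 0.252). For Psme1 it was -1.18 ± 0.51 (adjusted p = 0.202) and for Psme2 -1.02 ± 0.48 (adjusted p = 0.232). Without refed Lpin1+/+ replicate 2 these differences became -1.55, -0.59, -0.47, -0.63 and -0.59 for Psmb9, Psmb8, Psmb10, Psme1 and Psme2 (adjusted p from 0.375 to 0.781). Relative to the standard subunit that it replaces, Psmb8 was 3.85 times the RPKM of Psmb5 in that library, against 0.289 and 0.508 times in the other refed Lpin1+/+ livers, 0.229 to 0.387 times in the refed Lpin1-/- livers and 0.193 to 1.64 times in the fasted livers.

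The summed levels of immune cell markers were also high in that library, but did not follow these genes in every library. The summed RPKM of 10 leukocyte markers, of which 6 passed the limit on low values, was 69.1 in refed Lpin1+/+ replicate 2 and ran from 2.85 to 69.1 in refed Lpin1+/+, 10.8 to 24.0 in refed Lpin1-/-, 8.74 to 53.2 in fasted Lpin1+/+ and 19.4 to 84.4 in fasted Lpin1-/- liver. For 8 Kupffer cell and macrophage markers the sum was 631 in that library, with group ranges of 84.8 to 631 (refed Lpin1+/+), 91.8 to 213 (refed Lpin1-/-), 141 to 285 (fasted Lpin1+/+) and 293 to 745 RPKM (fasted Lpin1-/-). No leukocyte marker was at 0 in that library, where Ptprc (CD45) stood at 8.41 RPKM and the macrophage receptor Marco at 47.2 RPKM. Not every marker was raised there. The Kupffer cell marker Clec4f was at 32.4 RPKM, against 37.7 and 22.6 RPKM in refed Lpin1+/+ replicates 1 and 3. In fasted Lpin1+/+ liver, however, the leukocyte sum was highest in replicate 1, where Psmb8 was lowest. Both highest sums of the 12 libraries were those of fasted Lpin1-/- replicate 1. The order of the leukocyte sums rested largely on S100a8. It made up 49.5 of 53.2 RPKM and 74.8 of 84.4 RPKM in these libraries, and 38.7 of 69.1 RPKM in refed Lpin1+/+ replicate 2. Ptprc was 1.11, 0.420 and 1.12 RPKM in fasted Lpin1+/+ liver and 1.97 RPKM in fasted Lpin1-/- replicate 1. The part of these cells in the immunoproteasome levels was not tested.

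**Figure D4:**
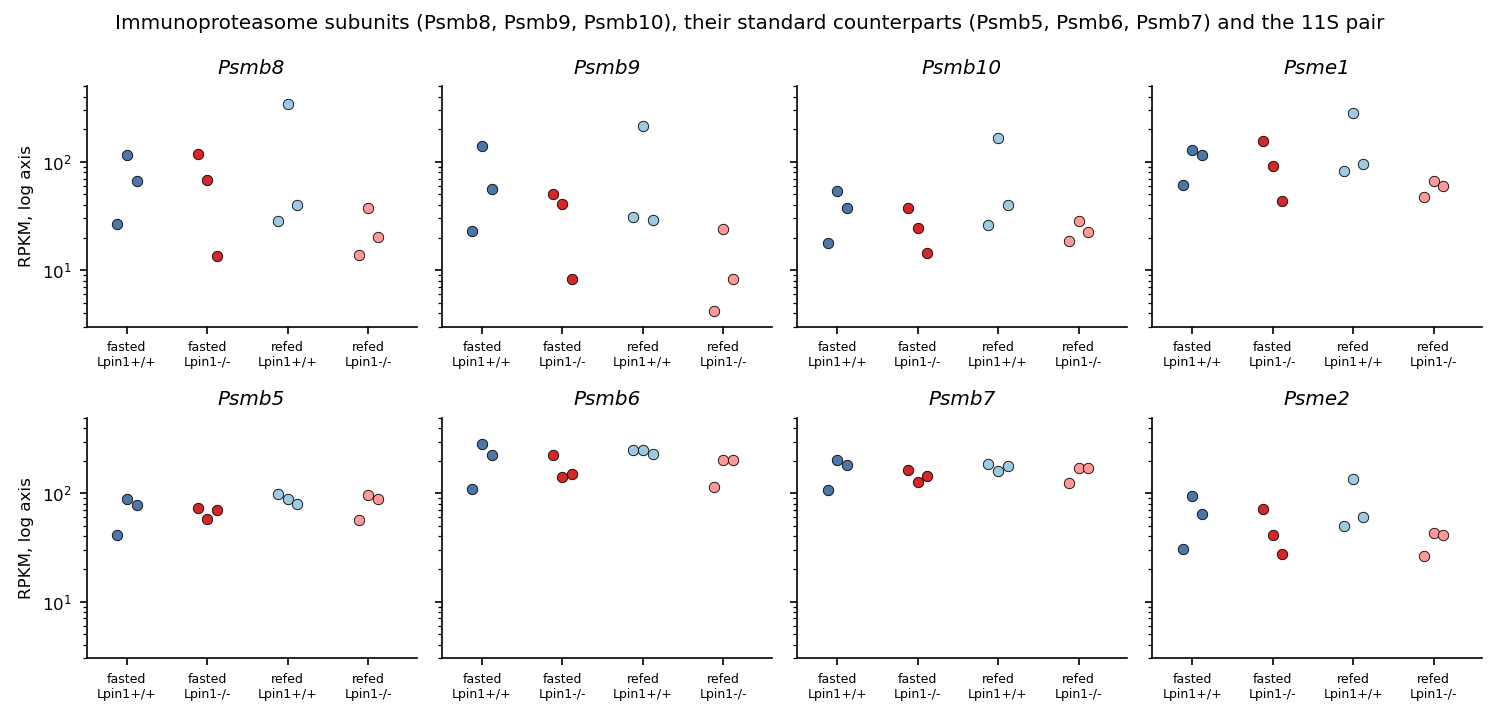
RPKM on a log axis in each of the 12 libraries for the interferon-inducible Psmb8, Psmb9, Psmb10 and Psme1 (top) and for Psmb5, Psmb6, Psmb7 and Psme2 (bottom), by group, 1 point a library. Refed Lpin1+/+ replicate 2 stands above the rest for the inducible genes (Psmb8 342 RPKM) and not for the standard subunits (Psmb5 89.0 RPKM).

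Of 11 genes of the interferon response and of antigen presentation, 2 interferon-induced genes were called lower in fasted Lpin1-/- liver and 0 higher, where 13.2% of all genes were called lower. They were the ubiquitin-like modifier Isg15 (-2.13, adjusted p = 0.0271) and Ifit1 (-1.73, adjusted p = 0.0133). In refed liver, where 4.07% of all genes were called lower, the same 2 were called, both lower, Isg15 at -2.90 (adjusted p = 0.0158) and Ifit1 at -1.61 (adjusted p = 0.0381). The antigen presentation genes Tap1, Tap2, Tapbp and B2m were not called in either state. The median over the 11 genes was -0.40 in fasted and -1.56 in refed liver, next to -0.14 and -0.07 for all genes. The refed median includes refed Lpin1+/+ replicate 2, the library with the highest immunoproteasome levels. In refed Lpin1+/+ replicates 1, 2 and 3, Tap1 measured 6.94, 43.5 and 8.91 RPKM and Gbp2 0.931, 49.6 and 0.986 RPKM. Ifit1, at 2.27, 7.64 and 7.94 RPKM, was not highest in replicate 2. The median without that library was not computed.

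Of 16 genes for proteins that bind or regulate the proteasome, 7 were called higher and 1 lower on refeeding in Lpin1-/- liver, where 17.8% of all genes were called higher and 2.92% lower, with a median of 0.50 against 0.25 for all genes. Those higher included the ubiquitin receptor Adrm1 (0.88, adjusted p = 0.025), the deubiquitinase Usp14 (1.13, adjusted p = 0.00757) and the shuttle proteins Rad23b (1.30), Ubqln1 (1.35) and Ubqln4 (1.53), which carry ubiquitinated proteins to the cap. Usp14 measured 9.98, 12.1 and 17.2 RPKM in fasted and 32.1, 27.7 and 27.4 RPKM in refed Lpin1-/- liver, and 19.8, 13.4 and 17.2 and 25.3, 16.3 and 23.0 RPKM in fasted and refed Lpin1+/+ liver. The gene called lower was Zfand2a, a stress-inducible proteasome partner, at -0.83 (adjusted p = 0.00942). In Lpin1+/+ liver 0 of the 16 were called.

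Of 9 genes of the NRF1 route, which comprises NRF1, its relative NRF2 and the enzymes that free NRF1 from the endoplasmic reticulum, 4 were called higher on refeeding in Lpin1-/- liver and 0 lower, next to 17.8% and 2.92% of all genes. The median of the 9 was 0.68 against 0.25 for all genes. They were Nfe2l2 (encoding NRF2; 1.92, adjusted p = 0.00404), the glycanase Ngly1 (0.62), and the ubiquitin ligase Syvn1 (1.70) with its partner Sel1l (1.17). Nfe2l2 measured 6.50, 6.21 and 4.38 RPKM in fasted Lpin1-/- liver, 24.2, 18.2 and 28.1 RPKM in fasted Lpin1+/+, 25.1, 59.2 and 23.9 RPKM in refed Lpin1+/+ and 17.8, 34.3 and 22.8 RPKM in refed Lpin1-/- liver. Fasted Lpin1-/- livers thus lay below all others, and the genotype difference in fasted liver was -1.87 (adjusted p = 0.00432). Syvn1 was the only gene of these lists called on refeeding in Lpin1+/+ liver (2.13, adjusted p = 0.033). Nfe2l1 itself was not called in any comparison.

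Of 5 genes for ubiquitin and its activating enzymes, 2 were called higher and 1 lower on refeeding in Lpin1-/- liver, next to 17.8% and 2.92% of all genes, and their median was -0.20. Ubb, which encodes a chain of ubiquitin units, measured 347, 343 and 381 RPKM in fasted and 131, 141 and 158 RPKM in refed Lpin1-/- liver, and 253, 326 and 305 RPKM in fasted and 217, 206 and 270 RPKM in refed Lpin1+/+ liver. It fell by 1.31 on refeeding in Lpin1-/- liver (adjusted p = 0.00102), while the test of whether its refeeding response differed between the genotypes gave -0.96 ± 0.25 (adjusted p = 0.0851). The activating enzymes Uba1 (0.93, adjusted p = 0.0225) and Uba6 (0.67, adjusted p = 0.0383) rose.

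Exon use was a second readout of the same genes that played no part in choosing them. The deposited tables count reads that include or skip an internal exon, and inclusion is the length-normalised share of reads with the exon. In fasted liver 416 exon events of 45 proteasome genes had enough reads, and 37 (8.89%, in 22 genes) differed between the genotypes, in a comparison where 11.3% of 69644 events were called (limma on the log2 ratio of inclusion to skipping). Of the 37, 28 showed less inclusion in Lpin1-/- liver and 9 more. Most were small, with a median size of 1.09 percentage points and 31 of 37 under 5 points. For 25 of the 37 the rarer form had no read in any of the 3 Lpin1+/+ libraries, and for 0 of the 37 none in the Lpin1-/- libraries.

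The rarer form of 32 of the 416 events had reads in all 3 fasted Lpin1-/- libraries and in no Lpin1+/+ one (7.69%, in 20 genes), against 5.8% of all events. The reverse was seen in 1 of the 416 events (0.240%) against 0.504% of all. In refed liver the rarer form was found only in the 3 Lpin1-/- libraries in 9 of 390 events (2.31%) against 2.45% of all events, and 0 showed the reverse, against 0.432% of all. Overlapping events share reads, and the libraries are identified in these tables by their place in a list.

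The exons of 4 subunits are shown because reads that skip them were found in Lpin1-/- libraries and in no Lpin1+/+ library. Sequences are read from GENCODE transcripts on GRCm38 in the direction of transcription, and the whole of each exon codes for protein.
Psmd13 exon 12 of 13, chr7:140897608-140897724, plus strand: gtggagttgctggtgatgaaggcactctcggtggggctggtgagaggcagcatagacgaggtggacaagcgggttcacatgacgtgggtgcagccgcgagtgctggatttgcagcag
Psmb9 exon 5 of 6, chr17:34183089-34183230, minus strand: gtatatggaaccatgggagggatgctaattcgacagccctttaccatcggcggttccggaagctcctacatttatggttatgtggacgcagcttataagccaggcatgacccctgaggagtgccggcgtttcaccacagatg
Psmd6 exon 5 of 8, chr14:14116148-14116256, minus strand: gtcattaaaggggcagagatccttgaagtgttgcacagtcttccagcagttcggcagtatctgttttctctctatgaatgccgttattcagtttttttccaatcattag
Psmb1 exon 3 of 6, chr17:15493098-15493179, minus strand: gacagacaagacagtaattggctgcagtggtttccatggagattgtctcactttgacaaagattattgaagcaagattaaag
The Psmd13 exon has 117 bases, a multiple of 3, so that its loss keeps the reading frame, while the 142 bases of Psmb9, 109 of Psmd6 and 82 of Psmb1 are not multiples of 3.

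Psmd13, a lid subunit, showed skipping of exon 12 in every Lpin1-/- library and in no Lpin1+/+ library. In fasted Lpin1-/- liver inclusion was 93.0%, 94.1% and 99.0%, with 155 skipping reads of 8323 (adjusted p = 0.00117), while fasted Lpin1+/+ liver had 0 of 9196, which allows a share of up to 0.0326% (3 reads). In refed Lpin1-/- liver inclusion was 98.6%, 99.1% and 98.8%, with 45 skipping reads of 10720 (adjusted p = 0.0137), against 0 of 11874 in refed Lpin1+/+ liver. Such limits are shares of reads, not normalised for length as inclusion is, and they cover counting error only. Unannotated forms of this exon with other ends counted the same skipping reads, and for the one of 99 bases, with few inclusion reads, inclusion was 61.7%, 66.6% and 92.2% in fasted Lpin1-/- liver, the widest difference of the 37 (-26.5 points).

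Psmb9, the immunoproteasome counterpart of Psmb6, skipped its exon 5 in both feeding states in Lpin1-/- liver. Inclusion was 95.9%, 97.2% and 95.9% in fasted Lpin1-/- liver (32 skipping reads of 2743, adjusted p = 0.00208) and 97.6%, 95.5% and 94.5% in refed Lpin1-/- liver (16 of 1075, adjusted p = 0.0224). Lpin1+/+ liver had 0 skipping reads of 5969 fasted and 0 of 8136 refed, the latter with most reads from replicate 2. The refed minus fasted difference in Lpin1-/- liver was -0.462 points (adjusted p = 0.896).

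Psmd6, a lid subunit, skipped exon 5 mainly in fasted Lpin1-/- liver. Inclusion was 93.0%, 93.5% and 99.3% there (129 skipping reads of 7322, adjusted p = 0.00191) and 99.7%, 99.7% and 100% in refed Lpin1-/- liver (10 of 12638), and it rose by 4.54 points on refeeding (adjusted p = 0.0167). No skipping read was found among 8639 fasted and 8889 refed Lpin1+/+ reads. Psmb1, a beta ring subunit, skipped exon 3 at a lower rate, with inclusion of 98.8%, 98.6% and 99.8% in fasted Lpin1-/- liver (82 of 18427, adjusted p = 0.0025) and 3 skipping reads of 20859 after refeeding, a difference that passed the test (adjusted p = 0.00751). Fasted Lpin1+/+ liver had 0 of 21536. For both exons replicate 3 was the fasted Lpin1-/- library with the least skipping.

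A gain of sequence was seen in Psmd11, a lid subunit, where a 63-base exon at chr11:80434518-80434580 belongs to a transcript annotated as a target of nonsense-mediated decay. It was included in 1.82%, 2.23% and 3.84% in fasted Lpin1-/- liver (67 of 1279 reads) and in 0 of 1754 reads in fasted Lpin1+/+ liver (adjusted p = 0.000841). In refed liver it was not called (adjusted p = 0.895), with 6 of 1962 reads in Lpin1+/+ and 13 of 2316 in Lpin1-/- liver.

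**Figure D5:**
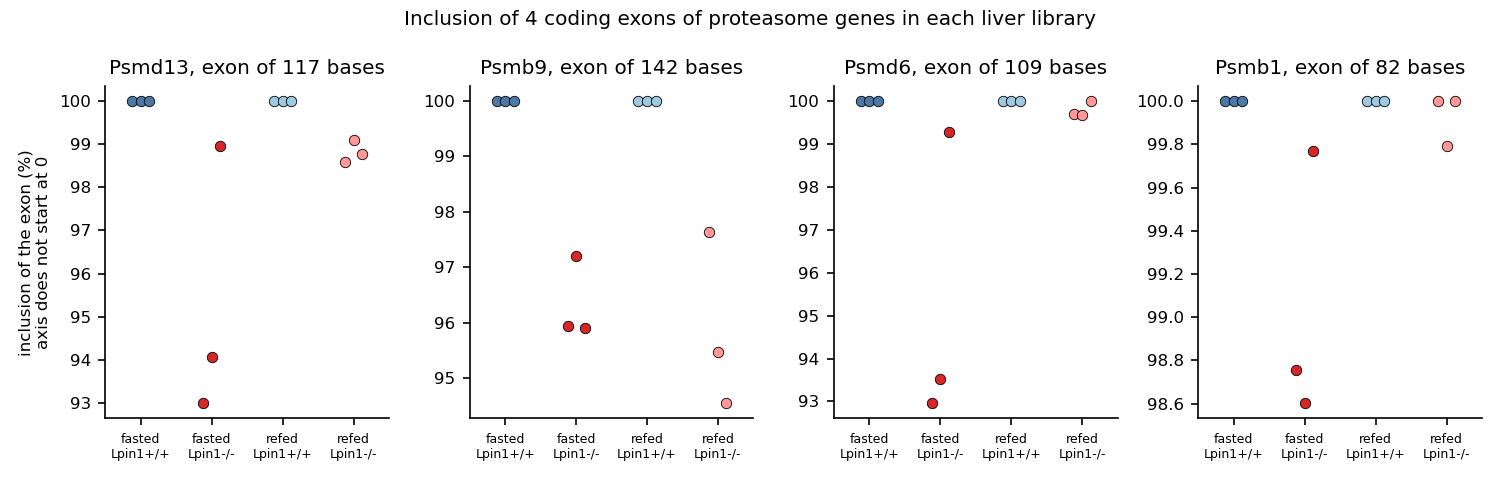
Inclusion (percent, axis not from 0) of the Psmd13, Psmb9, Psmd6 and Psmb1 exons in each library, by group. All Lpin1+/+ points lie at 100%, and the fasted Lpin1-/- points lie between 93.0% and 99.8%.

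In refed liver 3 of 390 events were called between the genotypes (0.769%), namely 2 overlapping forms of the Psmd13 exon and the Psmb9 exon, in a comparison where 0.97% of 65231 events were called. On refeeding, 4 of 173 events were called in Lpin1-/- liver (2.31%, 1 each in Psmb1 and Psmd12 and 2 in Psmd6) where 7.8% of 28444 were, and 0 of 173 in Lpin1+/+ liver where 0 of 28444 were (0%). At an unadjusted p under 0.05 the latter comparison had 9 of the 173 and 1459 of all. In the fasted genotype comparison, leaving out any 1 library moved the 37 calls to between 15 and 52, and in the refed one to 0, and with the variance modelled on read support 30 and 9 were called. On simulated counts the test as used here called none of the changed events. Those changes were placed only in well-read exons of intermediate inclusion, while most proteasome exons tested were nearly always included. How often the test misses a change in such exons was therefore not measured, and an exon without a call may still have changed.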

How the data were processed

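RNA-Seq was performed on liver from 12 mice, 3 in each group. The authors aligned stranded paired-end reads to GRCm38 with HISAT2 (2.0.5), counted them per gene with HTSeq (0.6.0) and deposited normalized levels as RPKM. For exons, the authors deposited inclusion and skipping counts from rMATS, as lists whose order was taken as the replicate order. Their own comparison tables hold fold changes and p values and were not used here.

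Here log2(RPKM + 1) of the 11507 genes that averaged 0.5 RPKM or more was fitted in 1 model of 4 groups with limma (3.58.1, R 4.3.3), with a trend in the variance and Benjamini-Hochberg adjustment over all genes. A difference on that scale understates the change of low genes. A gene was called at an adjusted p under 0.05. For exon events that reached 10 counts in each library, limma was run on the log2 of inclusion over skipping, each normalized for length after adding 0.5. Fitted ratios against groups with no read depend on that added count, so inclusion is given in percent. Both tests were checked on simulated data, where each recovered the size of the changes. The gene test called most of the strongest changes and few of the weakest. The exon test called no changed or unchanged event, and with the variance modelled on read support it called most changed events but more unchanged ones than its threshold allows. The simulated exon changes were limited to well-read exons of intermediate inclusion, unlike most of the proteasome exons tested. Python (3.11.15), pandas (2.3.3) and matplotlib (3.10.9) did the rest.

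The genes and lists were chosen with earlier results of these data known. Per-library levels are given for the cutting subunits and their immunoproteasome counterparts, for activators and inhibitor, and for up to 4 called genes per direction and comparison by size of difference. Levels of the chaperones other than Psmd5, and of Psmd8, Psmd12, Usp14, Nfe2l2 and Ubb, and the exons described, were added after their values were seen. Some genes of the lists of related genes are not reported here and are not in their counts. Replicate numbers were checked as pairs. Deviations of same-numbered libraries correlated at 0.16 to 0.30 between the refed groups, whose count of called genes was 0 with and without the number as a block, and at -0.47 to 0.25 in the other comparisons. Alternatives covered the pseudocount, the limit on low values, the scaling, the libraries fitted, each library left out and, added after seeing the data, exon length and read support.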

Additional observations from a re-analysis of the deposited data

How the results depend on the processing

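Over 5 comparisons of levels and 4 of exon events, counts of called genes or events moved by more than 1.5 times in 34 of 151 alternative analyses. Rescaling by the median ratio left 1 gene called of 9 on refeeding in Lpin1-/- liver and 1 of 3 between the fasted genotypes, and turned the median difference of the proteasome genes from 0.25 to -0.00267 on refeeding in Lpin1+/+ liver and from -0.10 to 0.00501 between the refed genotypes. Fitting only the fasted libraries left 0 calls between the fasted genotypes, and removing the slope on exon length, chosen after seeing the data, gave 20 and 8. Leaving out each library in turn gave 2 to 15 calls on refeeding in Lpin1-/- liver, 1 to 6 between the fasted genotypes and 0 to 1 between the refed genotypes. Over the same libraries the median between the refed genotypes ran from -0.182 to 0.0618 (the latter without refed Lpin1-/- replicate 1), and that of the difference between refeeding responses from -0.0447 (without fasted Lpin1+/+ replicate 2) to 0.290. For exon events, leaving out each library gave 15 to 52 calls between the fasted genotypes (15, 15 and 16 without the Lpin1+/+ replicates, 19 and 17 without Lpin1-/- replicates 1 and 2), 0 between the refed ones and 1 to 13 on refeeding in Lpin1-/- liver (13 without fasted Lpin1-/- replicate 3), and 1 added to each count gave 6 between the refed genotypes and 7 on refeeding in Lpin1-/- liver, while a variance trend over read support, chosen after seeing the data, gave 9 between the refed genotypes. The causes were not tested. Psmd5 was called on refeeding in Lpin1-/- liver in all 20 alternatives, and between the fasted genotypes in all but the fit of the fasted libraries alone. With the replicate number as a block, a pairing that the other comparisons do not bear out, 8 genes were called on refeeding in Lpin1-/- liver and 2 between the fasted genotypes, where Psmd7 and Psmd2 lost their calls, and no other call of a proteasome gene changed. With 3 mice a group the precision of every difference is limited by their spread, and at this depth skipping below the limits given for 0 reads was not detectable.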
